A study of Mus musculus with 5 samples.

Results

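The genes described here are 10 receptors through which phagocytes take up modified lipoproteins, lipoprotein remnants, haemoglobin complexes and debris, or which sort such cargo to lysosomes: Cd36, Lrp1, Msr1, Marco, Scarb1, Scarb2, Stab1, Cd68, Olr1 and Cd163. They were chosen by symbol as a functional group, and every probe set annotated to exactly 1 symbol was read. All 10 of 18193 genes were measured, by 20 of 34945 such probe sets. Expression was measured on Affymetrix arrays in 2 sorted mouse cell populations, with 1 array per sample. Brain dendritic cells (brain DC, 2 arrays) were sorted from the brains of C57BL/6 mice as CD11c-positive cells that were CD45-high and lacked lineage markers. The donors carried a subcutaneous inoculum of 1000000 B16-Flt3L tumour cells for 12 days (B16 being a melanoma line of mice and Flt3 ligand a cytokine that expands dendritic cells). Bone marrow monocytes (3 arrays), also from C57BL/6 mice, were sorted as CD11b-high, CD115-positive cells of low side scatter, and their labels name no treatment. All samples came from female mice aged 6 to 8 weeks. Cell type, tissue and tumour inoculation therefore differ together and cannot be told apart. Whether the samples of a group are separate animals is not stated, so p-values reflect the spread between arrays alone, which may be technical.

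Scavenger receptors are a structurally mixed class of surface proteins that bind polyanionic ligands such as oxidised or acetylated low-density lipoprotein (LDL), apoptotic cells and bacterial surfaces. The CD36 family (Cd36, Scarb1, Scarb2) spans the membrane at both ends, the class A receptors (Msr1, Marco) are collagen-like trimers, and Lrp1 is a giant member of the LDL receptor family that internalises apolipoprotein E remnants and protease-inhibitor complexes. In macrophages several of these receptors feed cholesterol and lipid to the lysosome, and in dendritic cells several also deliver antigen.

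The receptors split by member rather than moving as a group. In brain DCs 3 of the 10 were higher (Cd36, Cd163 and Stab1), 4 were lower (Lrp1, Msr1, Olr1 and Scarb1) and 3 were not called (Marco, Scarb2 and Cd68). Differences ran from 5.31 for Cd36 to -3.56 for Lrp1, with a median of -0.28 against 0.09 over all genes. Differences here are on the log2 scale, brain DC minus monocyte, with the standard error (SE) of a limma fit across all genes (n = 2 and 3 arrays). A gene was called at a Benjamini-Hochberg adjusted p under 0.05. Many genes differed between these populations: 16.9% of all genes were called higher and 16.9% lower, 33.8% in all. The arrays of the 2 groups did not overlap for 9 of the 10 receptors, Cd68 being the exception, while 60.2% of all genes showed no overlap. By size of difference, Cd36 ranked 25 from the highest of 18193 genes, Lrp1 ranked 35 and Msr1 ranked 77 from the lowest. With 2 and 3 arrays, the smallest p of an exact two-sided permutation test is 0.1, which is why the calls were taken from limma.

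**Figure D1:**
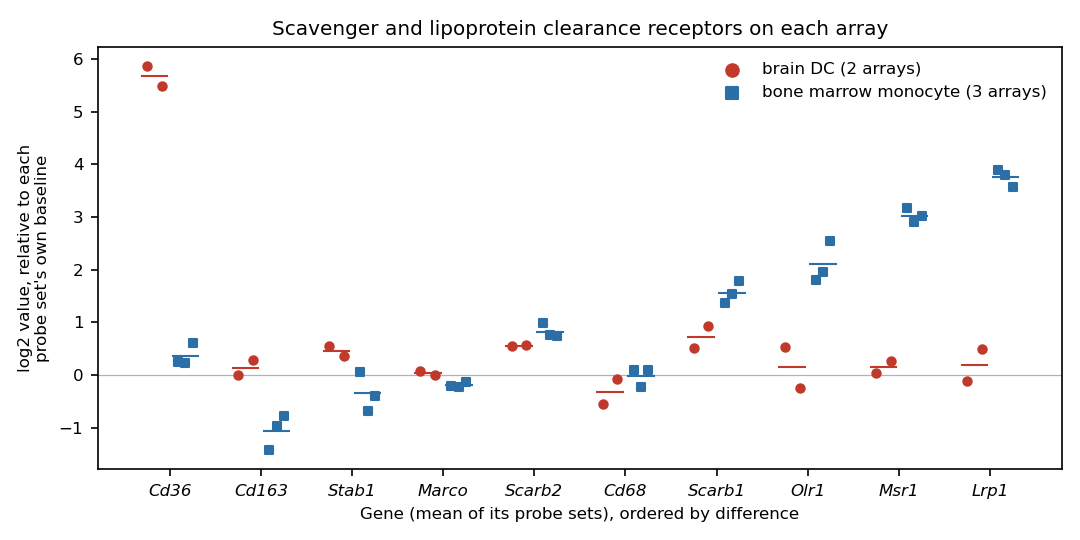
Log2 value of each receptor gene (mean of its probe sets, vertical axis) on each of the 5 arrays, brain DC as red circles and bone marrow monocytes as blue squares, with group means as lines. Values are relative to each probe set's own baseline, so only distances within a gene can be read; Cd36 is the gene with the widest gap upwards in brain DCs (5.31) and Lrp1 the widest downwards (-3.56), and the 2 groups overlap only for Cd68.

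Each probe set was deposited relative to a baseline of its own, which is not stated. The values therefore show differences between arrays and neither absolute levels nor detection. The labels were checked on the genes of the sort gates. Itgax (CD11c) was higher in brain DCs (5.02 ± 0.21 SE), and Itgam (CD11b, -2.28 ± 0.42) and Csf1r (CD115, -1.40 ± 0.18) were lower. Ptprc (CD45) was also lower in brain DCs (-0.63 ± 0.14, limma adjusted p = 0.0124), although these were sorted as CD45-high. All 9 measured conventional dendritic cell markers were higher and all 7 measured classical monocyte markers were lower. The former count includes Itgax and the latter Itgam and Csf1r, so both repeat gate genes. Among the array's own controls, all 24 for poly-A spike-in RNA, which is added to a sample before labelling, were higher in brain DCs (median 2.59), as were all 18 for hybridisation spike-ins (median 1.04). The control probe sets at the 5′ ends of Actb and Gapdh were higher in brain DCs by 3.02 and 2.80, while those at the 3′ ends differed by -0.41 and -0.12. For Tfrc and Pcx the 5′ difference exceeded the 3′ difference by 0.10 and 0.21. The contrast between transcript ends thus differed between the groups for Actb and Gapdh, and the part of this and of the spike-in values in the receptor differences was not tested.

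Upstream sequences of 4 receptors are given because these genes had the largest differences in each direction among those with a promoter entry, Cd36 and Cd163 being higher and Lrp1 and Olr1 lower in brain DCs. They come from RefSeq, which held an entry for 8 of the 10 genes, and each is the 250 bases before 1 annotated start, read 5′ to 3′ on the gene's strand. Capitals mark matches, on either strand, to GAGGAA (the core bound by PU.1, an ETS factor of myeloid cells) or AGGTCA (a half-site of nuclear receptors such as PPARγ and RXR).
Cd36, GRCm38.p6 chr5:17835897-17836146, minus strand: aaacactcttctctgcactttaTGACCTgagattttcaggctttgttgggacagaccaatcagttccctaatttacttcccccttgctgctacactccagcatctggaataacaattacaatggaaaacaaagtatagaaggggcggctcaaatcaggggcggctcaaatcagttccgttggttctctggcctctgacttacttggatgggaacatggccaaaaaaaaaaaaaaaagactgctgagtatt
Cd163, GRCm38.p6 chr6:124304401-124304650, plus strand: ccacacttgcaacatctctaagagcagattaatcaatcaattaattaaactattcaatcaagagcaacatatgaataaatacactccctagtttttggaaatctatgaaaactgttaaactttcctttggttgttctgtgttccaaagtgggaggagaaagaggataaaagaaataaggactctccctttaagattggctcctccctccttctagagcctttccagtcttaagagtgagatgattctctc
Lrp1, GRCm38.p6 chr10:127621149-127621398, minus strand: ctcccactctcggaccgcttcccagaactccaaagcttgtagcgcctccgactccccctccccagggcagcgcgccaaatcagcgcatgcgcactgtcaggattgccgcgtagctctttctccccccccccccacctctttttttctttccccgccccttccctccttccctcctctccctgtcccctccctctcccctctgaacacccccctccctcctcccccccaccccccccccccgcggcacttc
Olr1, GRCm38.p6 chr6:129507166-129507415, minus strand: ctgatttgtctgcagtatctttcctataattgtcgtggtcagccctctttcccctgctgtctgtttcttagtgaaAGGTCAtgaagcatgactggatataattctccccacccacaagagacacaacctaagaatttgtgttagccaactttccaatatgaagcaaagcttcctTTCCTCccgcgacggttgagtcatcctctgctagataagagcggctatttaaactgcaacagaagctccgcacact
The Lrp1 stretch had a GC content of 67.2% and 13 CpG dinucleotides, that of Olr1 45.2% and 6, that of Cd36 43.2% and 3, and that of Cd163 36.8% and 0. Among the receptors not called, the stretch of Scarb2 had 65.6% and 19 CpG, so values near that of Lrp1 were not limited to a lower gene. The median over all 32851 promoter entries was 52.4% and 6 CpG. The half-site AGGTCA occurred in 2 of the 8 receptor promoters, beginning 228 bases before the start of Cd36 and 175 bases before that of Olr1, and in 14.02% of all entries. GAGGAA occurred in 4 of the 8, those of Olr1, Marco, Stab1 and Cd68, and in 23.25% of all entries. TATAAA, the TATA box, occurred in 0 of the 8 and in 12.37% of all. Matches were found in genes that were higher, lower and not called alike, and they describe these letters only.

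Cd36, a receptor for oxidised LDL, long-chain fatty acids, thrombospondin and apoptotic cells, had the largest difference of the group. Averaged over its 3 probe sets, it read 5.87 and 5.49 on the brain DC arrays and 0.25, 0.22 and 0.61 on the monocyte arrays. Both brain DC arrays stood far above all 3 monocyte arrays. The difference of 5.31 ± 0.18 SE is 39.8-fold (limma adjusted p = 2.92e-06). The 3 probe sets were all higher, by 5.81 (1423166_at), 5.90 (1450883_a_at) and 4.23 (1450884_at). The last differed less than the first (1.58 ± 0.32 SE between them, limma adjusted p = 0.0141) and less than the second (limma adjusted p = 0.0129). Such disagreement is common on this array, since 22.9% of the pairs of probe sets of 1 gene that entered the same test were called. Cd36 is also a surface protein of platelets and microvascular endothelium, and some markers of both were higher in brain DCs. Of 6 measured platelet markers, 4 were higher, including Ppbp (4.77 ± 0.21), while Gp5 (0.30) and Gp6 (0.09) were not called. The list averaged 1.19 and 1.05 on the brain DC arrays against -0.34 to -0.15 on the monocyte arrays. Of 7 endothelial and pericyte markers, 4 were higher, including Cldn5 (2.56 ± 0.24), while Cdh5 (0.25), Pdgfrb (0.18) and Flt1 (-0.35) were not called. That list averaged 0.32 and 0.50 on the brain DC arrays against -0.33 to -0.27 on the monocyte arrays. Markers of other cells a brain sort could hold were read too. Of 9 for choroid plexus and neural cells, 1 was higher, the choroid plexus gene Ttr (7.22 ± 0.12, limma adjusted p = 5.74e-07). The 8 not called included Gfap (0.13) and Syt1 (0.16). Of 6 for natural killer and T cells, 2 were higher, Klrd1 (6.29 ± 0.30) and Gzma (2.75 ± 0.31). The 4 not called included Ncr1 (0.10) and Cd3e (0.19). Of 7 for B cells and plasmacytoid dendritic cells, 3 were higher, Bst2 (3.10 ± 0.16), Ccr9 (1.29 ± 0.13) and Ms4a1 (1.00 ± 0.16). Not called were Cd79b (-0.78), Cd79a (-0.14), Tcf4 (-0.13) and Pax5 (0.44). In these 3 lists limma called 0 genes lower, as did an unadjusted p under 0.05. Of 6 melanoma markers, read for the inoculated line, Mitf was lower (-1.65 ± 0.25), and Pmel (0.05), Tyr (0.14), Tyrp1 (0.11), Dct (0.14) and Mlana (-0.33) were not called. The part of any of these cells in the Cd36 value was not tested. In these bulk samples, fewer cells of a type and less RNA per cell cannot be told apart.

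Scarb1, the high-density lipoprotein receptor SR-BI and a member of the same family, differed in the opposite direction. It read 0.51 and 0.93 in brain DCs and 1.37, 1.54 and 1.78 in monocytes. The groups were close but did not overlap. It was 1.79-fold lower in brain DCs (-0.84 ± 0.18, limma adjusted p = 0.00993). Its 3 probe sets were at -0.49, -0.92 and -1.12, and the 2 with the larger differences carry the suffix _x_at, given to probe sets that may cross-hybridise. Read without them, Scarb1 was not called (-0.49, limma adjusted p = 0.0719), nor was it without brain DC replicate 1 (-0.63, limma adjusted p = 0.0591).

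Scarb2, which encodes LIMP-2, the lysosomal membrane protein that carries glucocerebrosidase to the lysosome, gave opposite readings from its 2 probe sets. Probe set 1454704_at read 0.09 and 0.09 in brain DCs against 1.13, 1.06 and 0.84 in monocytes and was lower (-0.92 ± 0.16, limma adjusted p = 0.00413). Probe set 1460235_at read 1.01 and 1.04 against 0.82, 0.44 and 0.65 and was not called (0.39 ± 0.17, limma adjusted p = 0.128). Neither probe set showed overlapping groups, and the difference between them was itself called (-1.31 ± 0.22, limma adjusted p = 0.00735). The gene mean of -0.27 ± 0.13 (limma adjusted p = 0.163) averages these opposed readings and stands for neither.

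Among the class A receptors, Msr1, which binds acetylated and oxidised LDL, was 7.38-fold lower in brain DCs. It read 0.03 and 0.26 in brain DCs and 3.17, 2.91 and 3.01 in monocytes, with each group tight and a wide gap between them (-2.88 ± 0.14, limma adjusted p = 1.41e-05). All 4 of its probe sets were lower, by different amounts: -1.53 (1425434_a_at), -2.38 (1422062_at), -3.42 (1425435_at) and -4.20 (1448061_at). Of the 6 pairs among them 4 differed, the widest pair by 2.67 ± 0.25 (limma adjusted p = 0.00133). The direction was therefore shared, while the size depended on the probe set.

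Marco, the collagen-like receptor for bacteria and particles, was not called. It read 0.08 and -0.01 in brain DCs and -0.21, -0.23 and -0.13 in monocytes (0.23 ± 0.12, 95% interval -0.05 to 0.51, limma adjusted p = 0.187). One probe set, 1449498_at, was at 0.46 (limma adjusted p = 0.0562), and the other, 1458297_s_at, was at -0.01 with overlapping groups. Without the latter, whose _s_at suffix marks a probe set shared between related transcripts, the gene was called higher (0.46, limma adjusted p = 0.0296).

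Lrp1 had the largest decrease. Its gene mean was -0.11 and 0.50 on the brain DC arrays and 3.90, 3.80 and 3.58 on the monocyte arrays, with a gap far wider than the spread within either group. The difference was -3.56 ± 0.20, an 11.8-fold lower value (limma adjusted p = 2.53e-05). Both probe sets were lower, 1442849_at by -4.07 ± 0.35 and 1448655_at by -3.06 ± 0.18, and the gap between them was not called (limma adjusted p = 0.119). The 2 brain DC arrays differed more on the first (-0.48 and 0.51) than on the second (0.26 and 0.48).

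Olr1, which encodes the lectin-like oxidised LDL receptor LOX-1, was also lower. It read 0.53 and -0.24 in brain DCs and 1.81, 1.96 and 2.55 in monocytes, the spread within each group being wider than for Msr1. The groups did not overlap, and the gene was 3.89-fold lower (-1.96 ± 0.28, limma adjusted p = 0.00173). It rests on 1 probe set. Markers of neutrophils and their progenitors were mixed: 5 of 9 measured were lower in brain DCs (Mpo, Elane, Prtn3, Mmp8 and Cd177), while 4 were not called, with Camp at 1.33, Ngp at 1.25, Ltf at 0.92 and S100a8 at -0.12. The list averaged 1.16 and 0.92 on the brain DC arrays against 2.16 to 3.62 on the monocyte arrays. Their part in the receptor values was not tested.

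Cd163 and Stab1, receptors of tissue macrophages, were both higher in brain DCs, each on 1 probe set. Cd163, which clears haemoglobin bound to haptoglobin, read -0.01 and 0.27 in brain DCs and -1.42, -0.97 and -0.79 in monocytes. All 3 monocyte arrays lay below both brain DC arrays, a 2.28-fold difference (1.19 ± 0.21, limma adjusted p = 0.00372). Stab1, stabilin-1, which takes up modified lipoproteins and extracellular matrix protein, read 0.54 and 0.36 against 0.05, -0.68 and -0.39. It was 1.73-fold higher (0.79 ± 0.21, limma adjusted p = 0.0257), with the highest monocyte array close to the lower brain DC array. Stab1 was no longer called when brain DC replicate 1 was left out (0.70, limma adjusted p = 0.120), or replicate 2 (0.88, limma adjusted p = 0.0595), or when monocyte replicate 2 was (0.62, limma adjusted p = 0.0565) or 3 (0.77, limma adjusted p = 0.0674).

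Markers of macrophages that share these receptors were read beside them. Of 8 measured markers of brain border macrophages other than the receptors, 3 were higher, namely Pf4 (2.90), Clec10a (1.43) and Lyve1. Of these, Pf4 is also a platelet gene. In the same list 1 was lower (Cbr2, -1.18) and 4 were not called, with Mrc1 at 0.05 and Siglec1 at 0.00. That list averaged 1.29 and 1.26 on the brain DC arrays and 0.72 to 0.81 on the monocyte arrays. All 8 measured microglia markers were higher, including Gpr34 (3.64 ± 0.21) and P2ry12 (2.49 ± 0.33), and averaged 1.30 and 1.07 against -0.84 to -0.62. The part of either cell type in the Cd163 and Stab1 values was not tested.

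Cd68, macrosialin, a heavily glycosylated protein of phagocyte lysosomes that binds oxidised LDL, was the receptor whose groups overlapped. It read -0.55 and -0.08 in brain DCs and 0.10, -0.24 and 0.09 in monocytes. The difference of -0.30 ± 0.18 was not called (95% interval -0.73 to 0.13, limma adjusted p = 0.248).

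**Figure D2:**
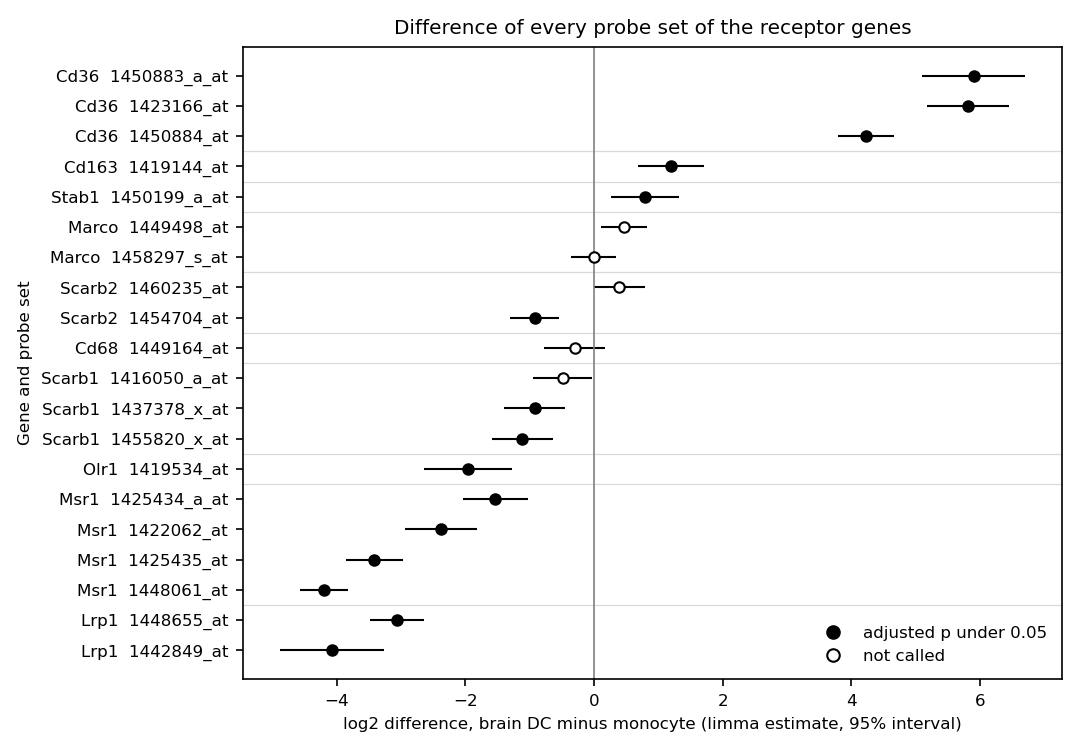
Log2 difference, brain DC minus monocyte (horizontal axis), of each of the 20 probe sets of the receptor genes, with the limma 95% interval; filled points have an adjusted p under 0.05. The 3 probe sets of Cd36 lie between 4.23 and 5.90, the 4 of Msr1 spread from -1.53 to -4.20, and the 2 of Scarb2 lie on opposite sides of 0.

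Read by probe set, 5 of the 20 were higher and 10 lower in brain DCs, and 5 were not called; of all single-symbol probe sets 13.5% were higher and 16.8% lower, 30.2% in all. The 2 groups did not overlap for 18 of the 20, against 57.0% of all such probe sets. Probe sets of 1 gene share its transcript and are not independent. Between them, Msr1 with 4 probe sets and Cd36 and Scarb1 with 3 each supplied 10 of the 20.

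The genes closest to Cd36 over the 5 arrays, by Euclidean distance between the deposited values, were P2ry14 (0.90), Klrb1b (1.00) and Il1r2 (1.23). They were higher in brain DCs by 6.03, 5.42 and 5.50. Closest to Lrp1 were Svip (0.51), Ikbke (0.72) and Dram1 (0.73), which were lower by -3.22, -3.89 and -3.34. The distance is taken over 5 arrays of 2 groups, on values that carry a baseline of each probe set. It therefore depends on these unstated baselines as well as on the size of the group difference. Itgae (5.44), for example, was nearer to Cd36 in difference than P2ry14 but was not among its 3 closest genes.

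Related genes were read from 8 lists that name 96 genes, 83 of them measured. In all, 14 were higher, 21 lower and 48 not called, that is 42.2% called against 33.8% of all genes, with a median difference of -0.07. Other scavenger receptors mostly did not pass the test: limma called 2 of 15 higher and 0 lower (median 0.02), while 5 were higher and 2 lower at an unadjusted p under 0.05. Without monocyte replicate 3, 1 of them was lower, as it was with array medians subtracted and with the replicate number as a block. Cxcl16, a transmembrane chemokine that also binds oxidised LDL, read 3.66 and 3.39 in brain DCs and -1.45, -1.47 and -1.24 in monocytes and was 30.0-fold higher (4.91 ± 0.14, limma adjusted p = 1.75e-06). Its probe sets were unequal, at 3.61 and 6.21. Cd14, the lipopolysaccharide co-receptor, was the other (2.31 ± 0.36), while Scarf2 at 0.02 and Cd163l1 at -0.05 were not called.

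The LDL receptor family and the sorting receptors related to it held 0 higher, 5 lower and 8 not called of 13 measured by limma, with 1 higher and 5 lower at an unadjusted p under 0.05, although their median of 0.04 was close to that of all genes. The sorting receptors Sort1, sortilin (-2.29 ± 0.19, probe sets from -3.60 to -1.32), and Sorl1 (-2.22 ± 0.16) were lower, as was Lrp12 (-1.13 ± 0.28). Sorl1 read -0.21 and 0.22 in brain DCs and 2.30, 2.17 and 2.22 in monocytes, with both groups far apart. Lrp6 (-0.58 ± 0.15) and Lrp8 (-0.56 ± 0.18), named after their values were seen, made up the 5. Vldlr (0.07) and Lrp1b (0.04) were not called. With an unmoderated linear model, 2 genes of the list were lower. The list held 2 lower genes without brain DC replicate 1, and 3 without brain DC replicate 2 or monocyte replicate 2. With either brain DC array left out, 1 gene of the list was higher.

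Of 5 measured chaperones, adaptors and regulators of that family, 1 was higher, 2 lower and 2 not called. Dab2, an endocytic adaptor, was 5.23-fold higher on average (2.39 ± 0.15), its 4 probe sets ranging from 0.85 to 3.65. Lrpap1, the chaperone RAP that escorts Lrp1 through the endoplasmic reticulum, was 2.30-fold lower (-1.20 ± 0.16, limma adjusted p = 0.00136), the same direction as Lrp1, with its 4 probe sets between -1.79 and -0.66. It read -0.11 and 0.35 in brain DCs and 1.35, 1.22 and 1.38 in monocytes. Mylip, the ligase that degrades LDL receptors, was lower (-0.76 ± 0.16), and Gulp1 (0.06) and Snx17 (0.14) were not called.

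Ligands of the receptors were divided, 4 of 13 measured being higher and 3 lower while 6 were not called (median 0.05). Hp, haptoglobin, the plasma protein whose complex with haemoglobin binds Cd163, was 8.26-fold lower (-3.05 ± 0.16), opposite to Cd163 itself. Lpl, lipoprotein lipase, was 7.68-fold lower (-2.94 ± 0.33, its 2 probe sets at -4.03 and -1.85), and the platelet chemokine gene Pf4 was 7.45-fold higher (2.90 ± 0.16). Apoe at -0.02 and Hpx at 0.05 were not called. The list held 2 higher ligands when monocyte replicate 1 or 3 was left out, and when array medians were subtracted. It also held 2 with the median of probe sets, with the replicate number as a block and with an unmoderated linear model. Leaving out brain DC replicate 2 lowered this count as well.

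Genes that handle lipid after uptake showed no common direction: 4 of 17 measured were higher and another 4 lower, while 9 were not called (median -0.12). Fabp4 and Fabp5, fatty acid-binding proteins of macrophages and dendritic cells, were opposed. Fabp4 read 3.36 and 3.11 in brain DCs and 0.04, -0.04 and 0.07 in monocytes (3.22 ± 0.13, limma adjusted p = 6.10e-06), although its 4 probe sets ranged from 0.87 to 5.55. Fabp5 read -1.03 and -1.09 against 1.13, 1.67 and 1.30 (-2.43 ± 0.18). Npc1, which exports cholesterol from the lysosome, was 6.98-fold lower (-2.80 ± 0.15), and Abca1 (-0.12) and Ppard (0.11) were not called. Pparg, a nuclear receptor of lipid metabolism, was chosen for mention after its values were seen. It read 1.67 and 2.79 in brain DCs and 0.05, -0.16 and 1.68 in monocytes, with overlapping groups, and was not called (limma adjusted p = 0.0506).

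Lysosomal membrane genes that accompany Cd68 and Scarb2 held 0 higher, 4 lower and 2 not called of 6 measured by limma, with a median of -0.66 and the same counts at an unadjusted p under 0.05. Besides Npc1 they were Lamp1 (-1.63 ± 0.15), Lamp2 (-0.85 ± 0.15) and the calcium channel gene Mcoln1 (1.39-fold lower), the last named after its value was seen. Lamp1 read -0.49 and -0.28 in brain DCs and 1.20, 1.41 and 1.12 in monocytes. Laptm5 (-0.19) and Tmem192 (0.29) were not called.

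Of 9 measured partners of CD36 signalling, 2 were higher, 4 lower and 3 not called, with a median of -0.16. The tetraspanin gene Cd9 was 13.7-fold higher (3.78 ± 0.24) and the kinase gene Fyn 2.95-fold (1.56 ± 0.17). Cd9 read 0.18 and 0.42 in brain DCs and -3.67, -2.98 and -3.78 in monocytes. Syk, a kinase of immunoreceptor signalling, was lower (-1.02 ± 0.13), and Tlr2 (-0.16) and Fcer1g (-0.08) were not called. Of 6 measured genes of haem and haptoglobin handling after Cd163, limma called 1 higher and 0 lower, with a median of -0.33, and 2 were higher and 1 lower at an unadjusted p under 0.05. The ferritin heavy chain gene Fth1 was the higher one (1.53 ± 0.13), and Blvra (-0.30) and Blvrb (-0.36), which act on biliverdin, were not called. With quantile normalisation 2 genes of this list were higher, and with array medians subtracted 1 was lower. Without monocyte replicate 2 that list had 2 higher and 1 lower, and without brain DC replicate 2 it had 1 lower.

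**Figure D3:**
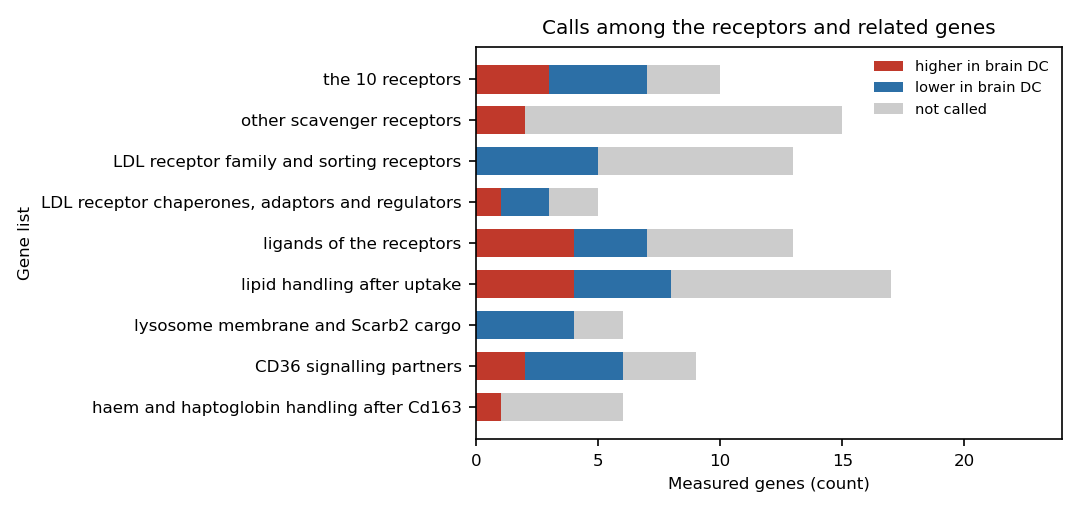
Number of measured genes (horizontal axis) called higher in brain DCs (red), lower (blue) or not called (grey), for the 10 receptors and each of the 8 lists of related genes. The receptors have 3 higher and 4 lower, the other scavenger receptors 2 higher and 0 lower, and the LDL receptor family 0 higher and 5 lower.

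Receptor differences kept their direction under all 12 other ways of processing that were run, but several of these could not have reversed one. The 2 variance models leave each difference unchanged. The replicate block gave the same differences as leaving out monocyte replicate 3. For the 9 receptors whose groups did not overlap, leaving out an array cannot change the sign. The differences for Cd36 lay between 5.13 and 5.79, those for Lrp1 between -3.87 and -3.26, and Msr1 was at -2.77 or lower. These 3 genes were called each time. Scarb2 and Cd68 were not called in any. Scarb1, Stab1, Olr1 and Cd163 lost their calls in at least 1.

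**Figure D4:**
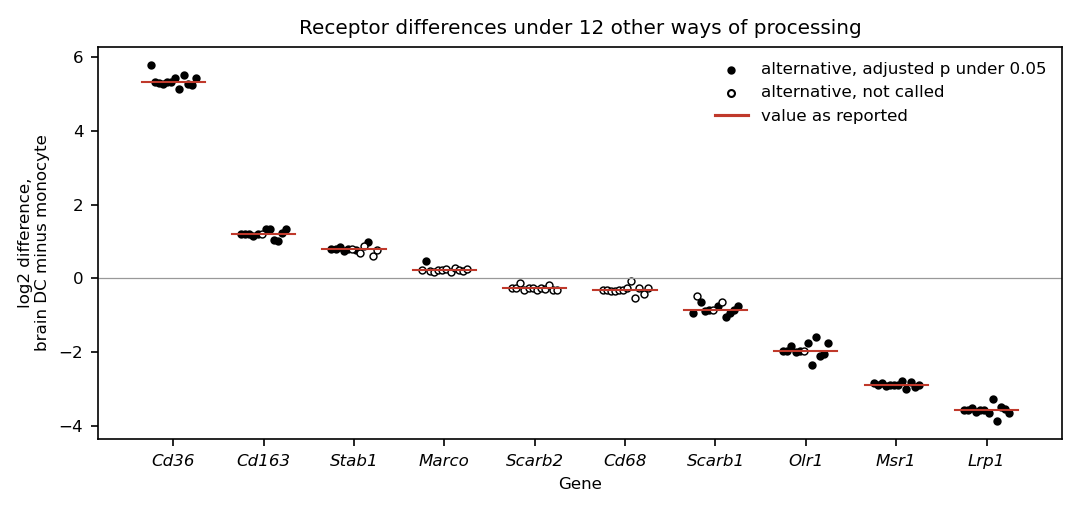
Log2 difference, brain DC minus monocyte (vertical axis), of each receptor gene under 12 other settings (points, filled where the adjusted p is under 0.05) and as reported (red line). Every gene stays on its side of 0, which several of the settings could not have changed, and Cd36, Msr1 and Lrp1 are filled throughout.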

How the data were processed

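The authors deposited 1 table of log2 values for 45101 probe sets on 5 arrays. The submitters' processing notes name RMA. RMA corrects background, normalises by quantiles and summarises probes. Its version, the arrays normalised together, the centring and the log base are unstated. The log2 scale is inferred from the largest range over the arrays, 8.86. Array medians lay between -0.05 and 0.00. Without levels, no filter on dim probe sets was possible, and the number of arrays limits the precision.

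Besides 64 controls, 34945 probe sets carried 1 gene symbol in the platform annotation, 932 carried several and 9160 had none. A gene's value was the mean of its single-symbol probe sets (18193 genes). Differences were fitted in limma (version 3.58.1; R 4.3.3; lmFit, eBayes, no covariate), with Benjamini-Hochberg adjustment over all genes or all probe sets. Pairs of probe sets (30196) were tested on their within-array differences, a test added after the data were seen. Genes with the most probe sets were left out of this test. The scripts were tested on simulated data.

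The 10 receptors and all lists were chosen with earlier results of these data known. Named besides the receptors were the gate genes, up to 3 called genes with the largest difference and 2 not called with the smallest per list, and the 3 genes nearest to Cd36 and to Lrp1. Further genes of the lists, such as Lyve1, Elane, Prtn3, Camp, Ngp, Cd79b and Flt1, were named after their values were seen. Promoters, from RefSeq (GRCm38.p6), and their motifs were chosen after the data were seen. Protein sequences were not used here. Alternatives were another probe set summary, fewer probe sets, 2 normalisations, 2 variance models, a replicate block and leaving out each array.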

Additional observations from a re-analysis of the deposited data

How the results depend on the processing

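Of 120 receptor differences under the 12 alternatives, 109 kept direction and side of the threshold, 10 lost a call, 1 gained one and 0 reversed. With an unmoderated linear model, which does not share the spread across genes, 1 receptor gene was higher and 2 lower, 3 receptor probe sets higher and 6 lower, 8 related genes higher and 9 lower, and 1339 of all genes higher and 1136 lower, instead of 3 and 4, 5 and 10, 14 and 21, and 3068 and 3083. Scarb1, Stab1, Olr1 and Cd163 lost their calls there (limma without moderation, adjusted p from 0.0763 to 0.165). Several of the 12 alternatives could not have reversed a direction, such as the 2 variance models, which left each difference unchanged.

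Leaving out 1 array left 2 to 3 receptor genes higher and 3 to 4 lower, 4 to 5 receptor probe sets higher and 9 to 11 lower, 12 to 14 related genes higher and 16 to 21 lower, and 2236 to 2447 of all genes higher and 2371 to 2806 lower. Where 1 brain DC array remained, it was assumed to vary like the monocytes. Same-numbered samples are not stated to share more than a number. Their deviations from the group means correlated at 0.04 and 0.09. As there are only 2 brain DC arrays, the deviations of these mirror each other, so the correlations do not settle whether samples were paired. With the replicate number as a block, 3 receptor genes were higher and 4 lower, as without it. Single list counts moved by over 1.5 times in 27 of 192 cases, not all of which are named here. Array number and the unknown levels limit all values.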
